A study of Mus musculus with 9 samples.

Results

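Hox genes encode homeodomain transcription factors that give cells along the body axis their positional identity. The members were every gene symbol in the deposited table that consists of Hox, a cluster letter from a to d and a paralog number. This gave 39 of 24411 genes, with 11 in the Hoxa cluster, 10 in Hoxb, 9 in Hoxc and 9 in Hoxd, and antisense and other non-coding Hox transcripts were left out. The measured material was bulk RNA of macrophages from C57BL/6 mice that had been expanded in culture with 100 ng/mL macrophage colony-stimulating factor (M-CSF), the growth factor that macrophages need to survive and divide. Yolk sac of E9.5 embryos had given rise to the YS lines (n = 3), fetal liver of E14.5 embryos to the FL lines (n = 3) and bone marrow of adults to the BM lines (n = 3), with 1 library for each line and no other treatment. A line was the bulk culture of 1 dish or well, grown from cells of several pooled mice. The sources do not tie lines to separate animals, so the p-values below measure the spread between lines, which may be technical.

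The genes of a Hox cluster lie in a row and are switched on in order during development. Genes with low paralog numbers act early and toward the head, and genes with high numbers act late and toward the tail. Genes with the same number in different clusters are paralogs, descended from 1 ancestral gene. In blood formation, Hoxa and Hoxb genes are active in stem and progenitor cells and are turned down as the cells mature. Proteins of the MLL (Kmt2a) complex keep active Hox genes on, and Polycomb complexes keep silent ones off. Hox proteins usually bind DNA together with TALE homeodomain partners of the Pbx and Meis families.

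Levels are given in TPM, a unit per transcript length that adds to the same total in every library and that keeps no record of sequencing depth, so a gene without signal is described as listed at 0. Where 3 values follow each other, they belong to lines 1, 2 and 3 of the group. The lines were macrophages by their markers, and all 12 genes of the macrophage list reached 1 TPM. Csf1r, the M-CSF receptor, ranged from 1086 to 2441 TPM, and Spi1, the master transcription factor of myeloid cells, from 364 to 456 TPM over the 9 lines. Others were less even. Fcgr1 was at 1.68 to 42.1 TPM in BM and 110 to 330 TPM elsewhere. Lyz2 was at 1163 to 3531 TPM in YS and 5806 to 21976 TPM elsewhere. Mertk was at 48.1 to 90.5 TPM in FL and 9.67 to 21.9 TPM elsewhere. In the test described below, Fcgr1 was called lower in BM, Lyz2 lower in YS and Mertk higher in FL than in both other groups. Leaving out single lines ended the Lyz2 calls and the Mertk call against YS lines. None of 18 housekeeping genes was listed at 0 in any line. BM line 2 stood apart from BM lines 1 and 3. It had 215 TPM of Hba-a1, an adult alpha globin, against at most 8.62 TPM in the other 8 lines, and it had low levels of transcripts that were abundant in YS line 2. Over the 45 genes with at least 20 TPM in that YS line and less than 0.5 TPM in both other BM lines, these levels were at the median 14.1% of those in YS line 2. The quartiles were 10.7% and 17.7%. The other YS lines and the FL lines were not compared with BM line 2 in this way. Calls against BM lines are therefore also given without BM line 2.

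Of the 39 Hox genes, 16 reached 1 TPM in at least 1 line, 9 others were above 0 but below 1 TPM throughout, and 14 were listed at 0 in all 9 lines. The genes that reached 1 TPM were 6 Hoxa, 7 Hoxb and 3 Hoxc genes, and no Hoxd gene did. The highest level of any Hox gene in any line was 41.4 TPM, for Hoxb7 in YS line 1. The genes listed at 0 throughout were Hoxa11, Hoxa13, Hoxb2, Hoxc11, Hoxc12, Hoxc13 and 8 of the 9 Hoxd genes, with Hoxd13 at 0.06 TPM in YS line 1 as the only Hoxd signal. The plot of levels by cluster and paralog number shows most of the Hoxa signal at or below Hoxa7, with Hoxa9 and Hoxa10 above 0 in FL lines alone, Hoxb signal from Hoxb3 to Hoxb9 and at Hoxb13, and Hoxc signal mainly at Hoxc4, Hoxc6 and Hoxc9. In bulk RNA, more cells that express a gene and more RNA per cell cannot be told apart.

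**Figure D1:**
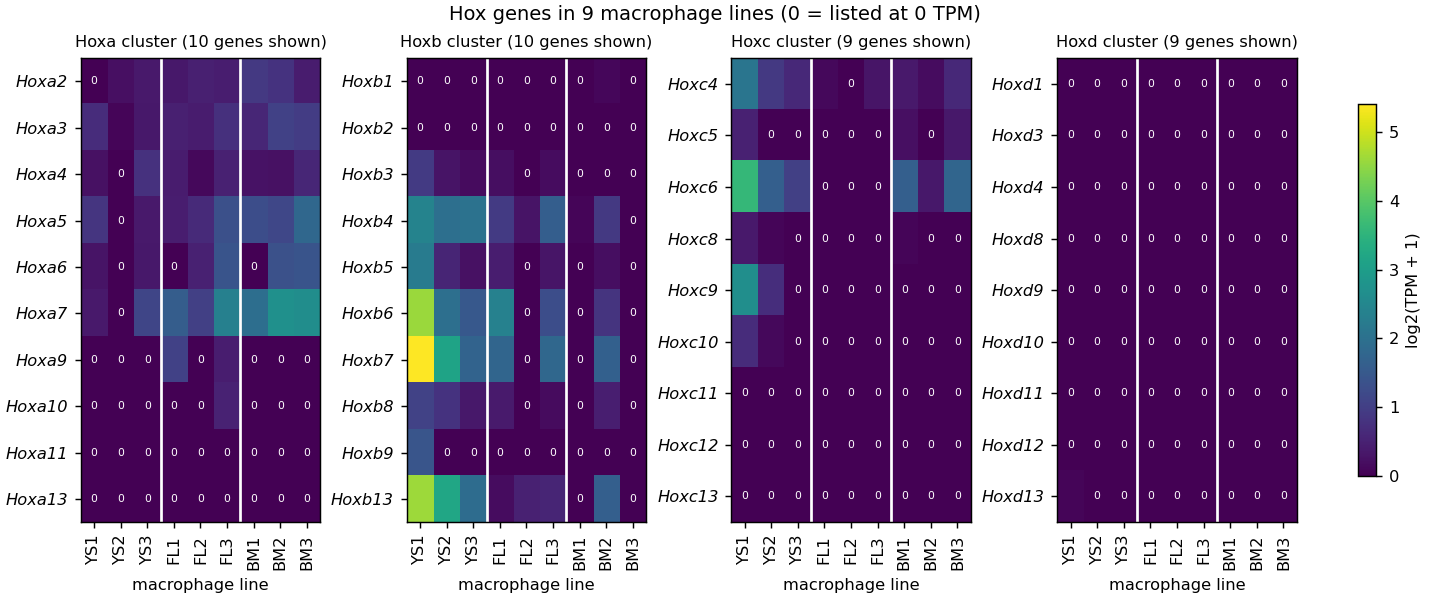
Each row is 1 reported Hox gene, ordered by paralog number within its cluster, each column is 1 macrophage line, and color is log2(TPM + 1), with a printed 0 where the gene was listed at 0. Hoxa7 is brightest in BM lines 2 and 3, the Hoxb rows are brightest in YS lines, and 8 of the 9 Hoxd rows are at 0 throughout.

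To show the DNA at the start sites of members with and without signal, 4 promoters were taken from RefSeq (GRCm38.p6), each covering 250 bases before to 50 bases after the annotated start on the coding strand, with CG dinucleotides in capitals. The RefSeq promoter table held 24 promoters of 22 of the 39 Hox genes, and Hoxb6, Hoxb7, Hoxb13 and Hoxc6 were not among them. Those shown belong to Hoxa5 (chr6:52204538-52204837, minus strand) and Hoxa7 (chr6:52218524-52218823, minus strand), which were called lower in YS than in BM lines, to Hoxb4 (chr11:96318017-96318316, plus strand), which was called higher in YS than in BM lines, and to Hoxd9 (chr2:74697513-74697812, plus strand), which was listed at 0 in every line.
Hoxa5: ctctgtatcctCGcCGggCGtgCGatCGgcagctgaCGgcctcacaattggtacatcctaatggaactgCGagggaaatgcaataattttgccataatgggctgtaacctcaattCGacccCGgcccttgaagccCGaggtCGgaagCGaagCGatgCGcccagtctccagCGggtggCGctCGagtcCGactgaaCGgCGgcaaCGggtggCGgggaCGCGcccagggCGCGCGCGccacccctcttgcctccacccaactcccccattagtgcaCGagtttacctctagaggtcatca
Hoxa7: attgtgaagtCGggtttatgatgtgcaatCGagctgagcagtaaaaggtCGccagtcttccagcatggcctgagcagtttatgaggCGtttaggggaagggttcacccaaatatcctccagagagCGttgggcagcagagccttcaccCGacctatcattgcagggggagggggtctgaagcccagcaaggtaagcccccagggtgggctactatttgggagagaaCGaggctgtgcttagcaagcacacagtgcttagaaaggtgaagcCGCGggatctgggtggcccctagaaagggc
Hoxb4: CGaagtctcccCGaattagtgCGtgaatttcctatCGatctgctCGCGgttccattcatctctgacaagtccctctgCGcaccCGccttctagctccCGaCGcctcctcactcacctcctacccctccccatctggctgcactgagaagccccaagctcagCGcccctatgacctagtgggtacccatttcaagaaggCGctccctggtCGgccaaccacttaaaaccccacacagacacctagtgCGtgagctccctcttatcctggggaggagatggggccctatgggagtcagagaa
Hoxd9: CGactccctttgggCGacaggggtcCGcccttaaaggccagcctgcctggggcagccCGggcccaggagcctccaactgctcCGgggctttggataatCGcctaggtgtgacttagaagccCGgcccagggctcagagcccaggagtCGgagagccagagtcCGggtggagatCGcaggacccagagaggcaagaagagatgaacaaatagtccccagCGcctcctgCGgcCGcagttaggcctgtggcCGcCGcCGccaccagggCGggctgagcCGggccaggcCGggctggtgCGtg

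CG dinucleotides are the sites of DNA methylation, and promoters rich in them are typical of Polycomb targets. The Hoxa5 promoter held 29, Hoxa7 held 9, Hoxb4 held 14 and Hoxd9 held 20. Over all 32851 promoters in the table the median was 7, and 26.5% held at least 20. Among the Hox promoters, 11 of 24 held at least 20, of which 3 of 8 belonged to genes that reached 1 TPM and 6 of 11 to genes listed at 0 throughout. The letters TATAAA, searched on both strands, were found in 4 of the 24 Hox promoters (Hoxa10, Hoxb8, Hoxd4 and Hoxd13) and in 13.6% of all promoters. The letters TGATTNAT, a form of the joint Hox and Pbx recognition sequence, were found on either strand in 2 of the 24 (Hoxa2 and Hoxd11) and in 3.22% of all promoters. These matches describe the letters only and are not binding sites.

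Summed over their members, the clusters differed with origin in different ways. The Hoxb sum was 99.96, 23.3 and 10.6 TPM in YS lines 1 to 3, 8.42, 0.63 and 6.95 TPM in FL lines 1 to 3, and 0.06, 6.48 and 0 TPM in BM lines 1 to 3. Every YS line was thus above every FL and BM line, although YS line 3 and FL line 1 were close to each other. The Hoxa sum went the other way between YS and BM lines, with 10.6, 2.81 and 6.71 TPM in YS and 12.6, 15.2 and 16.6 TPM in BM, and FL lines overlapped both at 8.07, 9.37 and 18.8 TPM. The Hoxc sum was 21.1, 3.75 and 1.56 TPM in YS, at most 0.23 TPM in FL and 2.62, 0.41 and 3.19 TPM in BM. Hoxb genes made up 75.9%, 78.0% and 56.1% of all Hox TPM in YS, 50.8%, 6.3% and 26.8% in FL lines, and 0.39%, 29.4% and 0% in BM lines. The sums cover all members, including any not reported here by name, and as descriptions they were not tested.

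**Figure D2:**
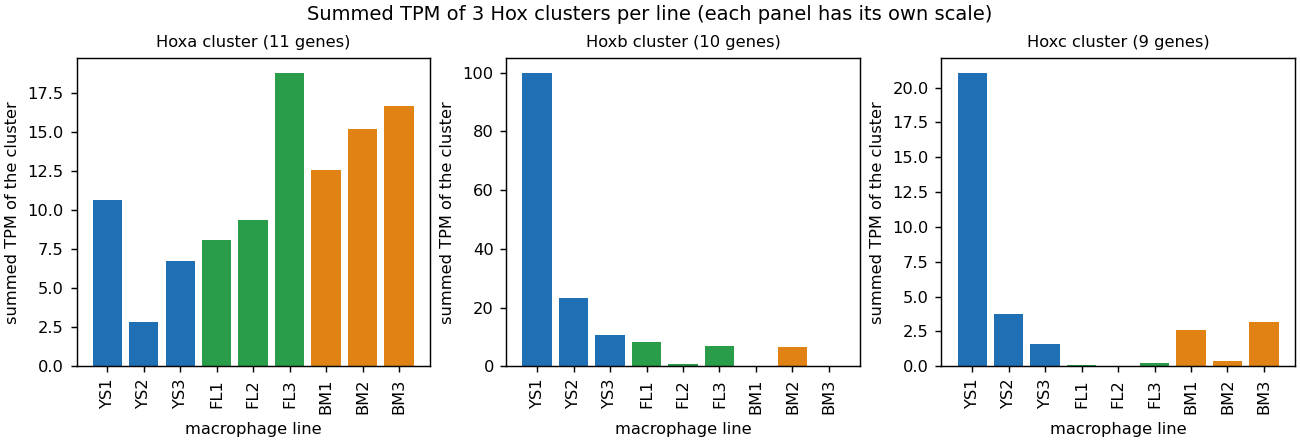
Bars give the summed TPM of all members of the Hoxa, Hoxb and Hoxc clusters (y axis, from 0, with its own scale in each panel) in each of the 9 lines (x axis), without error bars because each bar is 1 library. YS line 1 stands highest for Hoxb (99.96 TPM) and Hoxc (21.1 TPM), and the Hoxa sum is highest in FL line 3 (18.8 TPM).

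The total over all 39 Hox genes did not follow origin. It was 132, 29.9 and 18.8 TPM in YS, 16.6, 10 and 26.0 TPM in FL, and 15.3, 22.1 and 19.8 TPM in BM, so that YS line 1 lay far above 8 lines between 10 and 29.9 TPM. YS line 1 was the highest of the 9 lines for all 7 Hoxb and all 3 Hoxc genes that reached 1 TPM, and for none of the 6 Hoxa genes. The same line had the lowest Csf1r of all lines, with 1086 TPM. The part of this difference in its Hox levels was not tested.

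Among Hoxb genes, the ones reaching 1 TPM were Hoxb4 to Hoxb9 and Hoxb13. Hoxb4, which expands blood stem cells when overexpressed, was at 4.31, 2.95 and 3.11 TPM in YS, 0.89, 0.21 and 2.08 TPM in FL, and 0.06, 0.87 and 0 TPM in BM. Each YS line was above each FL and BM line, and FL and BM lines overlapped. Hoxb6, a gene of lateral mesoderm, was at 23.2, 2.95 and 1.79 TPM in YS, 4.20, 0 and 1.42 TPM in FL, and 0, 0.76 and 0 TPM in BM. The YS lines were above the BM lines, but FL line 1 exceeded YS lines 2 and 3. Hoxb7, a gene of the trunk whose product promotes growth in several tissues, was at 41.4, 7.76 and 2.30 TPM in YS, 2.39, 0 and 2.48 TPM in FL, and 0, 2.17 and 0 TPM in BM. YS line 3 was only just above BM line 2 and lay below FL lines 1 and 3.

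Hoxb13, the last gene of the cluster and known from tail and prostate development, was at 23.6, 8.20 and 2.78 TPM in YS, 0.13, 0.42 and 0.48 TPM in FL, and 0, 2.09 and 0 TPM in BM. All YS lines were above all other lines. Its paralogs Hoxa13 and Hoxc13 were listed at 0 in all 9 lines, and Hoxd13 was above 0 in YS line 1 alone, at 0.06 TPM. Hoxb9, the next Hox gene to it on chromosome 11, was at 1.70 TPM in YS line 1 and listed at 0 in the other 8 lines. Hoxb5, a marker gene of long-term blood stem cells, was at 3.75, 0.48 and 0.19 TPM in YS and at most 0.35 TPM elsewhere. Hoxb8, used by experimenters to hold myeloid progenitors in an undifferentiated state, was at 1.08, 0.74 and 0.27 TPM in YS and at most 0.37 TPM elsewhere. Both were thus low outside YS line 1. Hoxb3 stayed at or below 0.89 TPM, Hoxb1 was at 0.07 TPM in BM line 2 alone, and Hoxb2 was listed at 0 throughout, so the genes at the low-numbered end of this cluster were below 1 TPM in every line.

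Among Hoxa genes, Hoxa7, a gene of the thoracic spine that is often high together with Hoxa9 in leukemia, was at 0.30, 0 and 1.19 TPM in YS, 2.03, 1.03 and 4.10 TPM in FL, and 2.85, 5.52 and 5.27 TPM in BM. The YS lines lay below the BM lines, and FL lines overlapped with both. Hoxa5, needed for lung development, was at 0.77, 0 and 0.29 TPM in YS, 0.35, 0.57 and 1.48 TPM in FL, and 1.44, 1.21 and 2.5 TPM in BM. Hoxa6 was at 0.22, 0 and 0.28 TPM in YS, 0, 0.41 and 1.66 TPM in FL, and 0, 1.53 and 1.63 TPM in BM. For both genes the YS lines were at the low end, but BM line 1 was listed at 0 for Hoxa6.

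Hoxa9, the Hox gene best known from blood progenitors and leukemia, was at 1.06 TPM in FL line 1 and 0.35 TPM in FL line 3, and was listed at 0 in the other 7 lines. Its neighbor Hoxa10, a gene of the same progenitor program, was above 0 in FL line 3 alone, at 0.43 TPM. Hoxa3, a gene of thymus and parathyroid formation, stayed between 0.06 TPM in YS line 2 and 1.06 TPM in BM line 2. Hoxa2 reached at most 0.85 TPM and Hoxa4 at most 0.71 TPM. The high-numbered end of this cluster was therefore low, with Hoxa11 and Hoxa13 listed at 0 throughout.

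Among Hoxc genes, Hoxc6, a thoracic patterning gene, was at 11.1, 2.13 and 1.02 TPM in YS, was listed at 0 in all 3 FL lines, and was at 2.10, 0.27 and 2.39 TPM in BM. The FL lines were the only group without signal, and YS and BM lines overlapped. Hoxc4, which takes part in antibody gene diversification in B cells, was at 3.28, 0.85 and 0.54 TPM in YS, 0.08, 0 and 0.23 TPM in FL, and 0.30, 0.14 and 0.53 TPM in BM. Hoxc9, which sets thoracic identity in motor neurons, was at 5.34 TPM in YS line 1 and 0.63 TPM in YS line 2 and was listed at 0 in the other 7 lines. Hoxc5, Hoxc8 and Hoxc10 were highest in YS line 1, at 0.42, 0.30 and 0.61 TPM, and at most 0.27 TPM elsewhere.

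To test these differences, limma was fitted on log2(TPM + 1) for all 11753 genes that reached 1 TPM in at least 3 of the 9 lines, and a gene was called when the Benjamini-Hochberg adjusted p was under 0.1 and the fold over 2. Only 9 Hox genes passed this filter, among them Hoxa5, Hoxa6, Hoxa7, Hoxb4, Hoxb6, Hoxb7, Hoxb13 and Hoxc6. Hoxb4 and Hoxb13 passed through the 3 YS lines with 1 more line, and Hoxa5 through the 3 BM lines with 1 more, so a difference in these genes was partly built in by the filter. Between YS and BM lines, 6 of the 9 were called, 4 higher in YS lines (Hoxb4, Hoxb6, Hoxb7 and Hoxb13) and 2 lower (Hoxa5 and Hoxa7), where 12.8% of all tested genes were called, 7.57% higher and 5.22% lower. With every gene above 0 tested instead, the same 6 genes were called out of 25 testable Hox genes, where 8.47% of all genes were called, and the other 14 members could not be tested. The same 6 genes were those whose YS and BM lines did not overlap, which held for 49.0% of all tested genes. The median log2 difference was 0.84 over the 9 Hox genes and 0.11 over all tested genes, and 0.13 and 0.05 without the filter.

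Hoxb13 was higher in YS than in BM lines by 2.7 on the log2(TPM + 1) scale (SE 0.67, adjusted p = 0.0204 by limma), with means of 11.5 ± 10.8 TPM and 0.697 ± 1.21 TPM (SD, n = 3 each). Hoxb4 was higher by 1.81 (SE 0.39, adjusted p = 0.0118), with means of 3.46 ± 0.743 TPM and 0.31 ± 0.486 TPM. Among the called Hoxb genes, Hoxb4 had the smallest spread among YS lines. Hoxb7 was higher by 2.86 (SE 0.93, adjusted p = 0.05) and Hoxb6 by 2.41 (SE 0.85, adjusted p = 0.0638). These 2 calls rested on single lines: without YS line 1, the difference fell to 1.87 for Hoxb7 (adjusted p = 0.106) and to 1.46 for Hoxb6 (adjusted p = 0.13), and both calls were also lost without BM line 1 (adjusted p = 0.15 and 0.166) or BM line 3 (adjusted p = 0.149 and 0.165). Because log2(TPM + 1) compresses low values, all these differences understate the change in TPM.

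**Figure D3:**
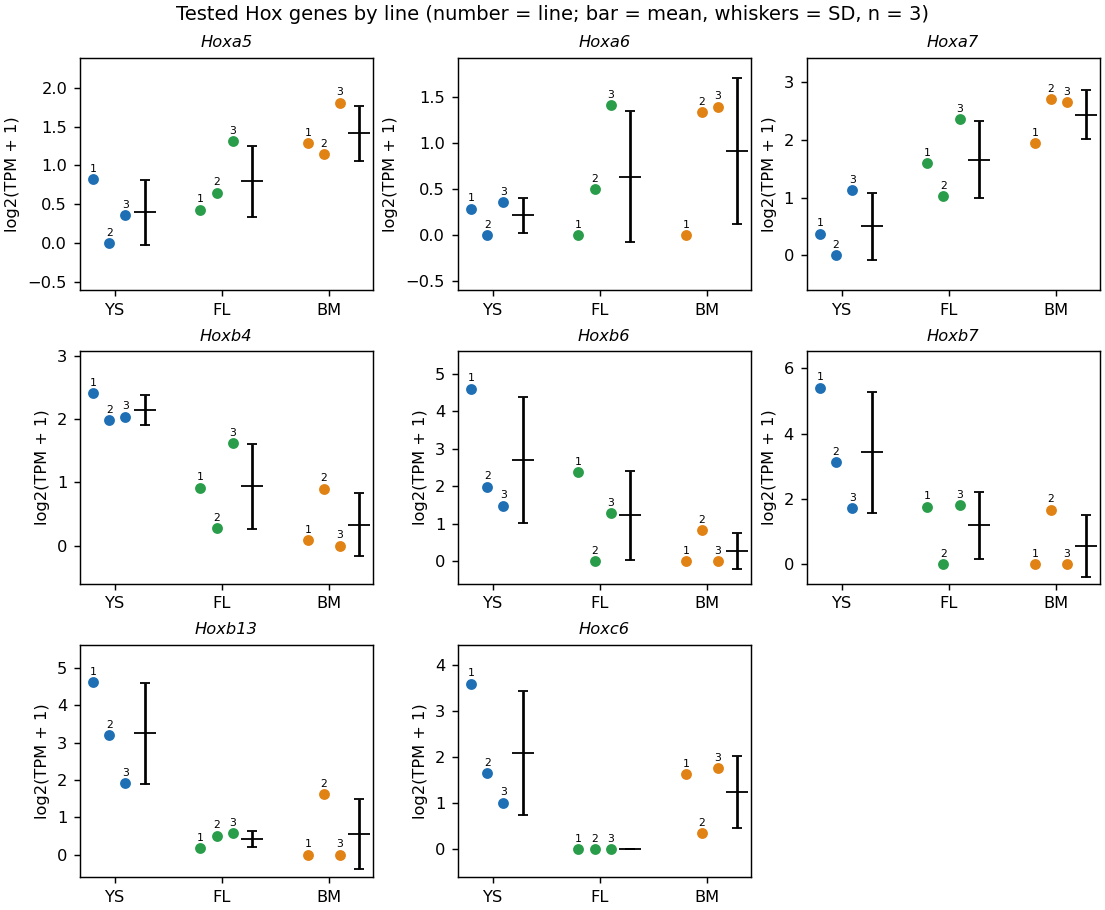
Points give log2(TPM + 1) of 8 tested Hox genes (y axis, own scale per panel) in each line of the YS, FL and BM groups (x axis), numbered by line, and the bar and whiskers give the mean and SD of 3 lines. The YS points of Hoxb4 and Hoxb13 lie above all others, the YS points of Hoxa7 lie below the BM points, and Hoxc6 is at 0 in all FL lines.

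Hoxa7 fell by 1.93 on the log2(TPM + 1) scale in YS against BM lines (SE 0.42, adjusted p = 0.0125 by limma), with means of 0.497 ± 0.619 TPM and 4.55 ± 1.47 TPM (SD, n = 3 each). Hoxa5 fell by 1.02 (SE 0.34, adjusted p = 0.0555), with means of 0.353 ± 0.389 TPM and 1.72 ± 0.688 TPM, and was not called without YS line 2, BM line 1 or BM line 3 (log2 differences of -0.82, -1.08 and -0.82, adjusted p = 0.137, 0.124 and 0.197). Hoxa6, which lies between these genes, was not called, with a log2 difference of -0.70 (95% interval -1.78 to 0.38, adjusted p = 0.296). Hoxc6 differed by 0.84 (interval -0.62 to 2.30, adjusted p = 0.35), so that neither direction could be told, and by 0.39 without BM line 2 (adjusted p = 0.711).

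BM line 2 was the only BM line in which Hoxb4, Hoxb6, Hoxb7 and Hoxb13 were more than traces, and its levels of these genes were 29.5%, 25.8%, 28.0% and 25.5% of those in YS line 2. Each of these shares was above the upper quartile of 17.7% among the 45 genes described above. Those genes had at least 20 TPM in YS line 2, while these Hoxb genes were at 2.95 to 8.2 TPM there. The shares are thus not matched by level, and no conclusion is drawn from the difference. Without BM line 2, 8 Hox genes were tested and the same 6 were called, with log2 differences of 2.10 for Hoxb4, 2.69 for Hoxb6, 3.42 for Hoxb7, 3.25 for Hoxb13, -1.15 for Hoxa5 and -1.79 for Hoxa7. The direction of the Hoxb and Hoxa differences thus did not depend on this line. A source of the Hoxb signal in BM line 2 was not tested.

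Between FL and BM lines, none of the 9 tested Hox genes was called by limma, and none had an unadjusted p under 0.05, where 10.3% of all tested genes were called, 6.01% higher in FL lines and 4.30% lower. Without the filter, none of the 25 testable Hox genes was called, where 6.61% of all genes were. The 1 Hox gene whose groups did not overlap was Hoxc6, listed at 0 in every FL line, against 49.5% of all tested genes with groups apart. Its adjusted p was 0.211, and it was called in the fit without YS line 1 (adjusted p = 0.0551) but not without BM line 2 (-1.70, adjusted p = 0.146). The largest differences otherwise were 0.95 for Hoxb6 (95% interval -0.98 to 2.87) and -0.78 for Hoxa7 (interval -1.73 to 0.18). The median log2 difference was -0.13 over the 9 Hox genes and 0.09 over all tested genes. Hoxb13 was -0.13 with all lines and 0.42 without BM line 2 (adjusted p = 0.741), so no direction can be given for it.

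Between YS and FL lines, Hoxb13 and Hoxc6 were called, both higher in YS lines, where 3.79% of all tested genes were called, 1.95% higher and 1.85% lower. Hoxb13 was higher by 2.83 (SE 0.67, adjusted p = 0.0533 by limma), and was not called without FL line 2 or FL line 3 (adjusted p = 0.137 and 0.141). For Hoxc6 the adjusted p was 0.0916, and the size of its difference is set by the pseudocount because all FL lines were listed at 0. Leaving out any 1 line other than YS line 3 ended the Hoxc6 call, with adjusted p from 0.103 to 0.205. Hoxb4 was 1.20 higher without being called (95% interval 0.32 to 2.09, adjusted p = 0.102), although its YS and FL lines did not overlap. Hoxb7 at 2.23 (adjusted p = 0.177) and Hoxa7 at -1.15 (adjusted p = 0.133) were not called with all lines, and both were called without YS line 3 (adjusted p = 0.0774 and 0.0804). In all, 3 Hox genes had groups apart (Hoxb4, Hoxb13 and Hoxc6), against 26.1% of all tested genes. The median log2 difference was 1.20 over the 9 Hox genes and 0.02 over all tested genes, and 0.17 and 0.01 over the 25 Hox genes and all genes without the filter, when Hoxb13 was the 1 Hox gene called and 2.13% of all genes were.

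**Figure D4:**
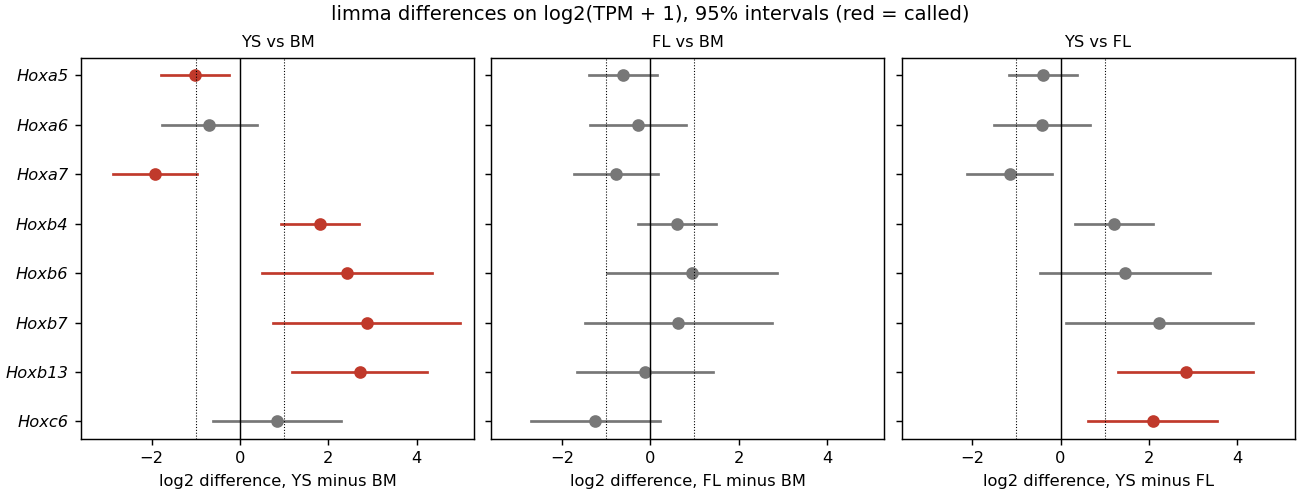
Points and horizontal lines give the limma difference on log2(TPM + 1) with its 95% interval (x axis) for 8 tested Hox genes (y axis) in the comparisons YS against BM, FL against BM and YS against FL, with called genes in red and dotted lines at a 2-fold change. YS against BM shows 6 called genes, 4 higher and 2 lower, FL against BM shows none, and YS against FL shows Hoxb13 and Hoxc6.

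Several Hox genes of the same cluster varied together over the 9 lines, and the values below are descriptions over libraries that share group and origin. Pearson's r of log2(TPM + 1) was 0.954 for Hoxb7 with Hoxb6, 0.914 for Hoxb7 with Hoxb13 and 0.877 for Hoxb7 with Hoxb4 (n = 9 lines). Within Hoxa it was 0.809 for Hoxa7 with Hoxa5 and 0.737 for Hoxa7 with Hoxa6. Across clusters Hoxa7 and Hoxb13 were opposed, at -0.706. Hoxc6 followed Hoxb13 more closely (0.672) than Hoxa7 (-0.432).

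Of the TALE partners of Hox proteins, 9 of 11 were tested, and 2, 1 and 1 of them were called in YS against BM, FL against BM and YS against FL, where 12.8%, 10.3% and 3.79% of all tested genes were. Meis2, a partner that is usually studied in limb, heart and neural tissue, was at 4.05, 1.80 and 3.20 TPM in YS, 0.14, 0.25 and 0.26 TPM in FL, and 0, 0.36 and 0 TPM in BM. It was called higher in YS than in BM lines (log2 difference 1.82, adjusted p = 0.00391 by limma) and higher in YS than in FL lines (1.68, adjusted p = 0.0234), but it passed the filter through the 3 YS lines alone, so a difference was built in by the filter and it could not be tested without any of them. With every gene above 0 tested, it was called in both comparisons too (adjusted p = 0.00364 and 0.0183), and without BM line 2 it was 1.96 higher in YS than in BM lines (adjusted p = 0.0093). Pbx4 was called lower in YS and in FL lines than in BM lines, by limma differences of -1.11 (adjusted p = 0.024) and -1.05 (adjusted p = 0.0364), with 2.78 to 3.52 TPM in BM. The first of these calls was lost without YS line 1 (-0.83) and the second without FL line 1, BM line 1 or BM line 3 (adjusted p up to 0.129), while both were made without BM line 2 (-1.19 and -1.13, adjusted p = 0.0532 and 0.0787). Meis1, the usual partner of Hoxa9 in progenitors, was present in all lines at 3.83 to 7.86 TPM and was called in no comparison. Pbx3 was at 11.6 to 39.3 TPM and was called in none.

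**Figure D5:**
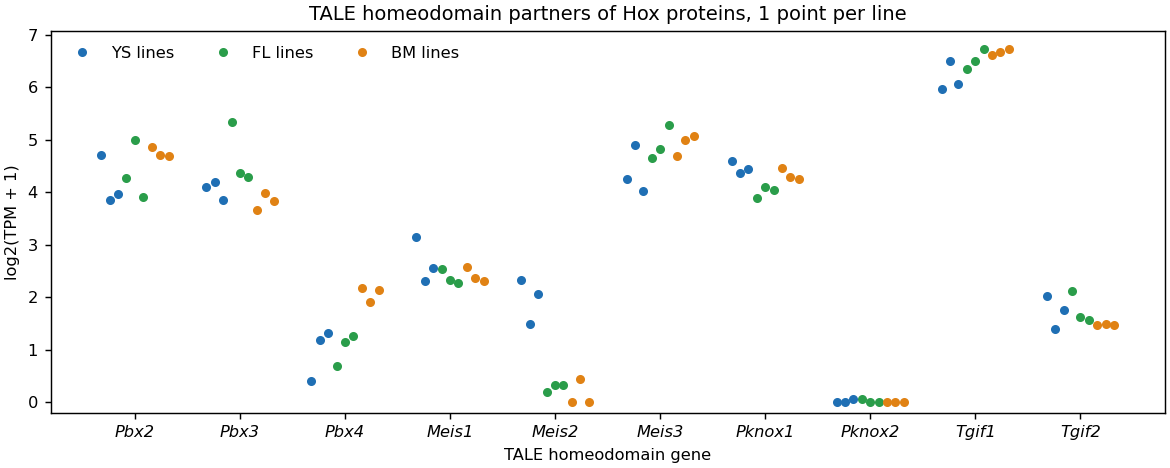
Points give log2(TPM + 1) (y axis) of 10 TALE homeodomain genes (x axis) in each of the 9 lines, colored by group. Meis2 is apart in the 3 YS lines, Pbx4 is highest in the 3 BM lines, and Pknox2 is near 0 in all lines.

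The activators of the MLL and Trithorax list were present in every group, with all 22 genes tested. None was called between YS and BM lines, where 12.8% of all tested genes were, or between YS and FL lines, where 3.79% were. Between FL and BM lines, where 10.3% were called, Kdm6a, an H3K27 demethylase, was higher (1.21, adjusted p = 0.004 by limma), and Dot1l, an H3K79 methyltransferase, was lower (-1.25, adjusted p = 0.00177), and both were called without BM line 2 (1.32 and -1.34). The YS lines also lay apart from the BM lines in the same directions (0.74 and -0.81, adjusted p = 0.0243 and 0.00976), short of a 2-fold change. Kmt2a was at 15.9 to 26.9 TPM and Men1, which ties the MLL complex to chromatin, at 13.0 to 32.6 TPM, and neither was called. For Men1 the FL lines lay below the BM lines (-0.81, adjusted p = 0.0321 by limma), short of a 2-fold change.

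Of the Polycomb list, all 31 genes were tested, and 5 were called between YS and BM lines, where 12.8% of all tested genes were. Scmh1, Phf19, Rybp and Kdm2b, members of or partners to the repressive complexes, were higher in YS lines by limma differences of 1.63, 1.39, 1.26 and 1.05 (adjusted p = 0.00809, 0.00887, 0.00327 and 0.00233), and Pcgf6 was lower (-1.14, adjusted p = 0.00302). All 5 were called without BM line 2, but Kdm2b fell just under a 2-fold change without YS line 3 or BM line 3 (0.99 in both) and with quantile normalization or median-of-ratios scaling (0.91 and 0.94). Between FL and BM lines Scmh1 was higher, a call lost without FL line 2, BM line 1 or BM line 3 (adjusted p up to 0.115), and Aebp2 and Pcgf6 were lower, where 10.3% of all tested genes were called, and all 3 were called without BM line 2. None was called between YS and FL lines, where 3.79% of all tested genes were. Of the core genes, Ezh2, Bmi1 and Cbx2 were called in no comparison, with Ezh2, the H3K27 methyltransferase, at 51.1 to 102 TPM, Bmi1 at 34.7 to 50.1 TPM and Cbx2 at 4.03 to 8.43 TPM. Others of this list differed between YS and BM lines short of a 2-fold change. Suz12, Eed, Rbbp4 and Phc2 were higher in YS (0.62, 0.43, 0.48 and 0.93, adjusted p = 0.014, 0.043, 0.0152 and 0.00789 by limma). Ring1, Aebp2 and Yaf2 were lower (-0.83, -0.92 and -0.40, adjusted p = 0.0123, 0.0142 and 0.0392). Kdm2b was at 56.3, 46.4 and 57.8 TPM in YS and 25.5, 27.0 and 23.4 TPM in BM, so these groups were well apart.

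Of the genes that set Hox expression in the embryonic axis, 15 were found in the table, 5 were tested and 6 were listed at 0 in all 9 lines. Among the latter were Cdx1, Cdx2 and Cdx4, which activate trunk Hox genes in the embryo. Egr2, a hindbrain regulator that is also induced in macrophages, was called lower in YS and in FL lines than in BM lines (-1.32 and -1.40, adjusted p = 0.0129 and 0.0114 by limma), also without BM line 2 (-1.47 and -1.55). Of the genes flanking the Hox clusters, 13 of 17 were tested and none was called in any comparison, where 12.8% (YS against BM), 10.3% (FL against BM) and 3.79% (YS against FL) of all tested genes were called. Short of a 2-fold change, Snx10 and Lnp of this list were lower in YS than in BM lines (-0.94 and -0.65, adjusted p = 0.00478 and 0.0128 by limma). The largest difference upward was 0.44 for Cbx5 (adjusted p = 0.131). Skap2, beside Hoxa, was at 180 to 268 TPM, while Evx1 and Evx2, homeobox genes at the high-numbered ends of Hoxa and Hoxd, were listed at 0. Of the 12 stem and progenitor genes, 3 were tested and Cd34 was called higher in YS than in BM lines (2.62, adjusted p = 0.0622), at 16.2, 1.47 and 5.98 TPM against at most 0.28 TPM. This call was lost when YS line 1, YS line 3 or any BM line was left out (adjusted p from 0.109 to 0.159). In FL lines Cd34 was at 1.20, 18.35 and 1.36 TPM. It was not called in FL against BM lines (2.10, adjusted p = 0.144 by limma) or in YS against FL lines (0.52, adjusted p = 0.74). Flt3 was listed at 0 in all lines and Kit, above 0 in YS line 1 alone, was at 0.03 TPM.

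Markers of other cell types were checked in the same libraries. Of 42 such markers, 4 to 9 reached 1 TPM in a line. The 9 mesenchymal markers summed to 0.43 to 1.28 TPM in YS, 1.39 to 2.79 TPM in FL and 0.45 to 2.52 TPM in BM, with Thy1 listed at 0 throughout, so their YS and BM ranges overlapped. The 6 endothelial markers summed to 30.1 to 56.0 TPM in YS, 19.0 to 51.8 TPM in FL and 0.22 to 3.20 TPM in BM, with Emcn listed at 0 in every line. Kdr, at 0.29, 16.1 and 54.4 TPM in YS, was highest where Hoxb7 was lowest among them, and Tie1, at 25.8, 4.99 and 0 TPM, followed the order of Hoxb7. Pecam1, at 4.91, 8.17 and 0.29 TPM in YS and at most 0.56 TPM elsewhere, followed neither order. Cdh5, at 0.14, 0.87 and 1.36 TPM in YS, followed the order of Kdr. Kdr was called higher in YS and in FL than in BM lines (3.07 and 4.35, adjusted p = 0.0807 and 0.0318 by limma). Cdh5 was called higher in FL than in BM lines (1.10, adjusted p = 0.0366). The YS call of Kdr was lost when YS line 2, YS line 3, FL line 1 or any BM line was left out. Both FL calls were lost without BM line 1 or BM line 3. For Kdr, YS line 1 (0.29 TPM) lay below BM line 2 (0.86 TPM). The 7 erythroid and megakaryocyte markers summed to 236 to 2122 TPM in YS, 616 to 1730 TPM in FL and 39.1 to 620 TPM in BM, with Hbb-bs listed at 0. Pf4 made up most of each sum, but in BM line 2 it was at 393 TPM beside 215 TPM of Hba-a1 and 12.6 TPM of Hbb-bt. The other markers of this list were near 0 in every line, with at most 0.36 TPM for Itga2b, 0.08 TPM for Gata1 and 0.53 TPM for Klf1. Pf4 was called higher in YS and in FL than in BM lines (2.63 and 3.43, adjusted p = 0.0768 and 0.0409 by limma). Both calls were made without BM line 2 and lost without BM line 1 or BM line 3. The YS call of Pf4 was also lost without YS line 2 or YS line 3 (adjusted p = 0.199 and 0.112). Its FL call was also lost without FL line 1 (adjusted p = 0.116). Without the filter, and with the compared groups alone, the YS calls of Kdr and Pf4 were lost too. For Pf4, YS line 1 (226 TPM) lay below BM line 2. The epithelial, granulocyte and lymphoid markers were each led by 1 gene (Afp, S100a8 and Il7r), with the others at or below 1.24 TPM. S100a8 was called lower in YS than in BM and in FL lines (-1.55 and -3.53, adjusted p = 0.0356 and 0.00997 by limma). It was called higher in FL than in BM lines (1.98, adjusted p = 0.0176), and each of its calls was also made without BM line 2. Its YS against BM call was lost without BM line 1 (adjusted p = 0.117) and with a pseudocount of 4. Its FL against BM call was lost with a pseudocount of 0.1 (adjusted p = 0.151). In YS against BM, FL against BM and YS against FL, 12.8%, 10.3% and 3.79% of all tested genes were called. The part of all these markers in the Hox differences was not tested.

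Some Hox exons overlap other annotated genes, and how reads were shared there is not stated. In GENCODE M21, exons of 9 of the 39 Hox genes overlap another gene on the same strand, among them Hoxa3 and Hoxa9 of the genes that reached 1 TPM. On the opposite strand, Hoxa7 overlaps Hoxaas3 and Hoxb5 overlaps Hoxb5os. The libraries were made with a directional kit, but the strand setting of the counting is not given, so reads of these pairs may not be fully told apart. Hoxa5, Hoxb4, Hoxb6, Hoxb7, Hoxb13 and Hoxc6 have no such overlap in that annotation.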

How the data were processed

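Poly(A) RNA of 9 expanded macrophage lines (3 YS, 3 FL, 3 BM) was sequenced from directional libraries, with reads of 75 nt from 1 end. What the authors deposited is a single TPM table with 24411 gene symbols and 2 decimals. The submitters' processing notes name Trim Galore 0.6.6, STAR 2.7.9a and RSEM 1.3.3, and the genome build and annotation are not given in the sources used here. TPM keeps no depth, so no counting error is given, and the number of lines limits the precision.

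Hox genes were selected by symbol, and groups were taken from the sample labels. The members and the gene lists were chosen with earlier results of these data known. The 11753 genes that reached 1 TPM in 3 or more of the 9 libraries were tested with limma 3.58.1 in R 4.3.3 on log2(TPM + 1), with all lines in 1 fit, an intensity trend and Benjamini-Hochberg adjustment over all tested genes. Calls required an adjusted p under 0.1 and a fold over 2. The scripts were tested on simulated data. Of the Hox genes reaching 1 TPM in any line, those reported here by name are given with their values. Other named genes were the called members of each list with the largest differences, up to 4 a list, and Meis1, Pbx3, Kmt2a, Men1, Ezh2, Cbx2, Bmi1, Cdx1, Cdx2 and Cdx4. Kdm2b, Suz12, Eed, Rbbp4, Phc2, Ring1, Yaf2, Snx10, Lnp, Cbx5, Skap2, Evx1, Evx2, Flt3 and Kit, and single markers of other cell types, were named after their values were seen. Alternatives covered the pseudocount, the filter, the scaling, the intensity trend, the groups in the fit, a replicate block and leaving out each line. Promoters and overlaps came from RefSeq GRCm38.p6 and GENCODE M21. Some of the genes counted are not reported here by name. The sources do not say whether line numbers pair the samples, and the main fit did not pair them.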

Additional observations from a re-analysis of the deposited data

How the results depend on the processing

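Among the Hox genes called between YS and BM lines (6 with all lines), quantile normalization, median-of-ratios scaling, a pseudocount of 0.1, no filter, no intensity trend and a fit of the compared groups alone kept the same 6 genes. A pseudocount of 4 left 2 (Hoxb7 and Hoxb13), and a filter at 5 TPM left 0 because only 1 Hox gene was then tested. Leaving out 1 line gave 3 to 6 calls, with 3 (Hoxa7, Hoxb4 and Hoxb13) without BM line 1 or BM line 3 and 4 without YS line 1. Hoxb13 was called in all 17 alternatives that tested it, Hoxa7 and Hoxb4 in 16, Hoxb7 in 14, and Hoxa5 and Hoxb6 in 13. Between FL and BM lines (0 calls), Hoxc6 alone was called with a pseudocount of 0.1 (1), with the compared groups alone (1) and without YS line 1, for a range of 0 to 1 over left-out lines. Between YS and FL lines (2 calls), the number was 1 with a pseudocount of 4, 1 without the filter, 0 with a filter at 5 TPM, 0 with the compared groups alone, and 0 to 4 over left-out lines, with 0 without FL line 2 or FL line 3 and 4 without YS line 3. Quantile normalization added Hoxb4 and lost Hoxc6 (adjusted p = 0.14), which left 2, and leaving out the trend added Hoxb4, for 3. No Hox call changed direction under any alternative. The cause of these changes was not tested, beyond the smaller number of genes tested at 5 TPM.

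Over all genes, the calls between YS and FL lines (446) fell to 280 with a pseudocount of 4 and 81 with the compared groups alone, and ranged from 175 to 549 over left-out lines, with 175 without FL line 2, 178 without FL line 3, 285 without BM line 1 and 294 without BM line 3. Quantile normalization shifted the median of all genes by -0.12 between YS and BM lines and moved the split of calls from 890 higher and 614 lower to 724 and 763, while the Hox split stayed at 4 and 2. With the line number as a replicate block, 1503, 1191 and 409 genes and 6, 0 and 2 Hox genes were called in YS against BM, FL against BM and YS against FL, and no Hox call changed, while Cd34 between YS and BM lines was no longer called (adjusted p = 0.102). Deviations of same-numbered lines correlated between -0.118 and 0.088, and those of lines with different numbers between -0.138 and 0.118. Pairing by number was thus not seen, but such weak correlations cannot exclude shared pools of animals or shared handling.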

Other observations

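Non-coding genes of the Hox clusters were also measured. Hotairm1, a non-coding gene of the Hoxa cluster that is induced during myeloid maturation, was at 10.1, 5.76 and 15.4 TPM in YS, 7.10, 7.19 and 17.4 TPM in FL, and 11.3, 11.4 and 10.6 TPM in BM. Mir196a-1, which lies between Hoxb9 and Hoxb13, was at 4.97 TPM in YS line 1 and listed at 0 in the other 8 lines, as was Hoxb9. Hoxb5os was likewise highest in YS line 1, at 2.19 TPM. Hottip and Hoxa11os, at the high-numbered end of Hoxa, were listed at 0 in all lines, as were the Hoxa11 and Hoxa13 genes beside them.

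The tested genes whose log2(TPM + 1) followed a Hox gene most closely over the 9 lines were Usp10, Ddx18 and Col15a1 for Hoxb7 (Pearson's r = 0.965, 0.962 and 0.959) and Trnt1, Ewsr1 and Zhx1 for Hoxc6 (0.976, 0.970 and 0.968). These are descriptions over 9 lines that share group and origin. The genes were picked as the highest r among all tested genes, so high values were built in by the choice. All of them were highest in YS line 1, as were Hoxb7 and Hoxc6, so the values lean on that line. Of these genes, Col15a1, a basement membrane collagen, was at 11.6, 3.51 and 1.57 TPM in YS and at most 1.58 TPM in the others.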
